A study of Mus musculus with 10 samples.

Results

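The Slc25 family comprises the carriers that move metabolites, nucleotides, cofactors and ions across the inner mitochondrial membrane. Its transcripts were taken here as all gene symbols beginning with Slc25a other than Slc25a1. Of the 12366 genes with a probe set of 1 symbol among the deposited values, 39 met this definition. Each was read from its brightest probe set, by the mean of all 10 arrays. Some other members of the family had no such probe set and were not read. The comparison was of 5 control liver samples with 5 mutant liver samples of the genotype DicerloxP/loxP;Afp-Cre+, with 1 array per sample. In the mutants both alleles of Dicer1, the enzyme that cuts precursor microRNAs into mature microRNAs, carry loxP sites, and Cre is driven by the Afp gene, which is active in fetal liver. All mice were 28 days old, of mixed strain and fasted for 5 hours, per the labels. What the controls carry, and the sex, litter and processing batch of the animals, is not stated in the labels. No batch could be tested, and since nothing says that the samples came from separate animals, each p-value rests on the variation among these 10 samples, which may be technical.

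Carriers of this family share a fold of repeated membrane segments, and most exchange one solute for another. In hepatocytes they connect mitochondrial enzymes with the cytosol. They supply phosphate and adenine nucleotides for ATP synthesis, pass aspartate, malate and ornithine for the urea cycle and the transfer of reducing equivalents, and admit acylcarnitines for fatty acid oxidation. They reach the inner membrane through a dedicated import route, in which small chaperones of the intermembrane space hand them to the TIM22 complex.

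The labels were checked first. Dicer1 read 8.06 in controls and 5.75 in mutants on the log2 scale on 1 probe set, and 8.08 and 7.06 on its other probe set, with groups that did not overlap on either. Of 8 measured hepatocyte markers 0 passed the test, which 20.1% of all genes passed. Alb, the main plasma protein made by hepatocytes, averaged 16.20 in controls and 16.24 in mutants. Of the markers of Kupffer cells and macrophages 8 of 11 were higher in mutants, beside 8.62% of all genes. Their summed level was 13.51 to 14.32 in controls and 14.37 to 14.89 in mutants. Of stellate cell markers 6 of 9 were higher, beside 8.62% of all genes, with summed levels of 14.02 to 14.24 and 14.44 to 15.03. Of 8 endothelial markers 1 was lower, beside 11.5% of all genes. None of the bile duct (5), lymphocyte and neutrophil (5), erythroid (6), proliferation (9) or muscle and fat (1) markers measured passed limma's test. Beside the 20.1% of all genes, these lists are short. In bulk liver a change in the number of cells of a type and a change in RNA per cell cannot be told apart. Mutant replicate 5 differed less from the controls over the 3531 genes called without it. For each gene its deviation from the control mean was divided by that of the other mutants' mean, and the median ratio was 0.293. Those genes were chosen on the other arrays, so this is a description. Dicer1 itself was as low in mutant replicate 5 as in the other mutants on its brighter probe set. There it read 6.98 in mutant replicate 5, 6.97 to 7.20 in the other mutants and 7.91 to 8.18 in controls. Why mutant replicate 5 differed less over the other genes was not tested.

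Only 3 of the 39 carriers passed the test. Slc25a30, a carrier related to the uncoupling proteins, was higher in mutants, and Slc25a11, which exchanges 2-oxoglutarate for malate, and Slc25a39, a glutathione carrier, were lower. A gene was called where limma's p, adjusted over the whole table by the Benjamini-Hochberg method, fell under 0.05. By this rule 7.69% of the carriers were called, beside 20.1% of all genes. In single directions 2.56% of carriers were higher beside 8.62% of all genes, and 5.13% were lower beside 11.5%. The groups did not overlap for 3 carriers, or 7.69%, beside 13.2% of all genes. These were Slc25a11, Slc25a39 and Slc25a24, which was not called, while the groups of Slc25a30 overlapped. At an unadjusted p under 0.05 there were 8 carriers, or 20.5%, beside 34.9% of all genes. The carriers' median difference was -0.01, equal to that of all genes at -0.01, with 18 positive and 21 negative differences. Their median absolute difference was 0.18, beside 0.20 for all genes.

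**Figure D1:**
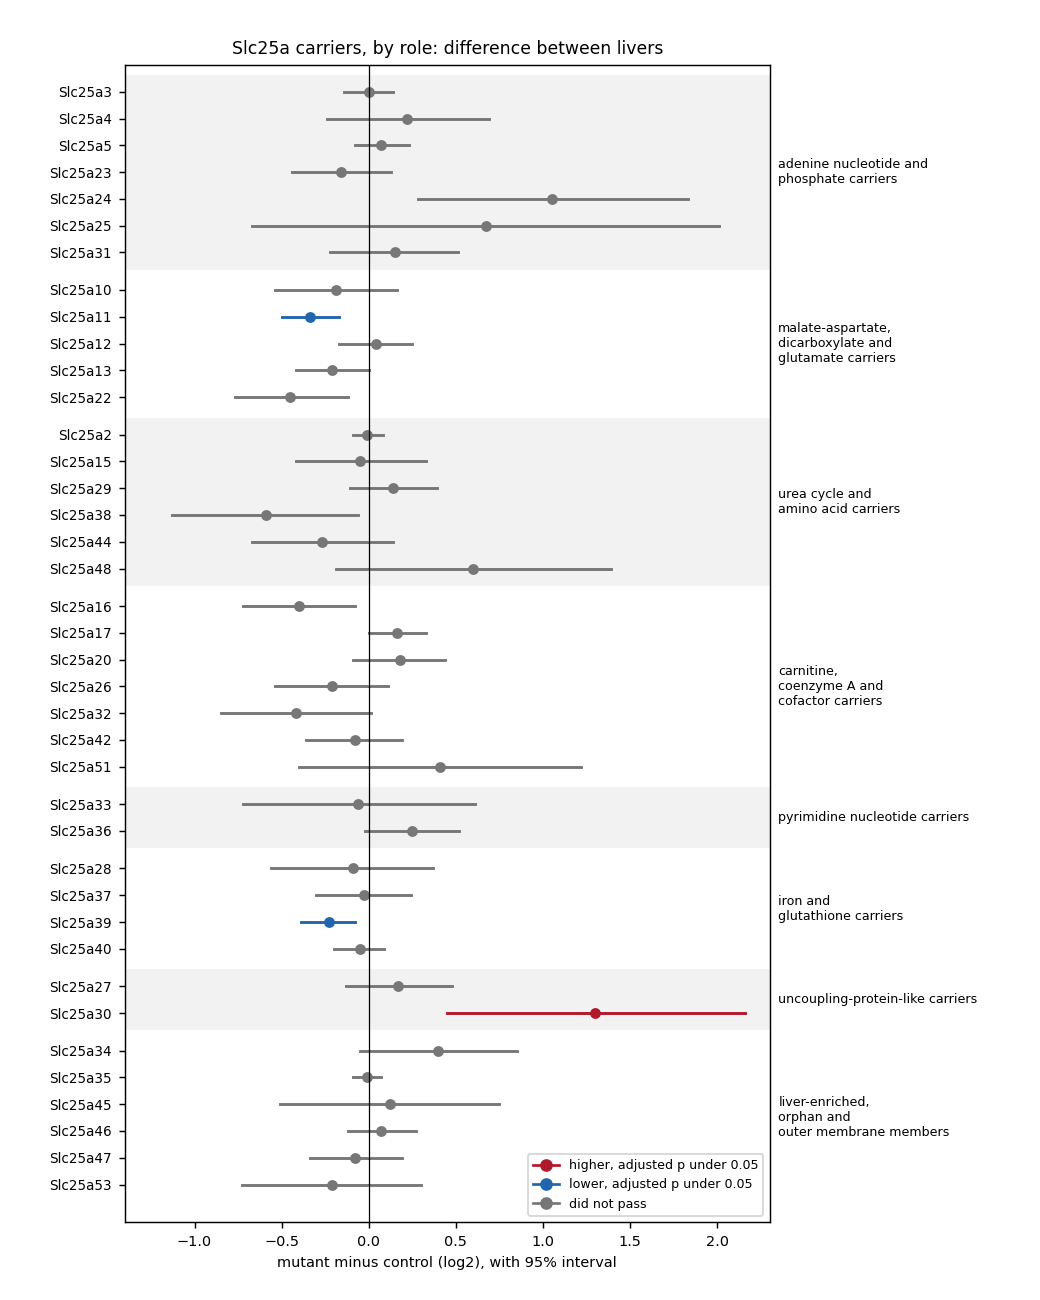
Difference between mutant and control liver for each of the 39 carriers on the log2 scale (points, horizontal axis) with its 95% interval (lines), grouped by role. Slc25a30 is called higher, Slc25a11 and Slc25a39 are called lower, and most other intervals include 0.

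A carrier that did not pass was not thereby shown to be equal in both groups. The 95% interval of the difference lay within 0.5 of 0 for 18 carriers, or 46.2%, beside 50.5% of all genes, and within 1 of 0 for 33 carriers. The carriers' median standard deviation was 0.18 among controls, beside 0.16 for all genes, and 0.27 among mutants, beside 0.20 for all genes.

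For the 3 carriers that passed, the 120 bases before the transcription start are shown, so that the promoter of the carrier that rose can be set beside those of the carriers that fell. They come from RefSeq on build GRCm38.p6, read 5′ to 3′ on the strand of the gene, with the GC box letters GGGCGG or their reverse complement CCGCCC in capitals. All 3 genes lie on the minus strand. The stretches lie at chr14:75787038-75787157 for Slc25a30, chr11:70647040-70647159 for Slc25a11 and chr11:102407518-102407637 for Slc25a39.
Slc25a30: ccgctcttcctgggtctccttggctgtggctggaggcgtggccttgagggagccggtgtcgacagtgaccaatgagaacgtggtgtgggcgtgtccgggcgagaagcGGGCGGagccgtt
Slc25a11: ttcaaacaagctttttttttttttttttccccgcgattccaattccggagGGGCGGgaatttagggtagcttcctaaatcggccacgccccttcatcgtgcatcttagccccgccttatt
Slc25a39: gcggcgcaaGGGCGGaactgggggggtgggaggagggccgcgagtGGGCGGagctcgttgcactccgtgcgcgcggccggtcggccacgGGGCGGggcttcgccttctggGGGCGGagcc
The stretch of Slc25a39 held 4 such letter runs, and those of Slc25a30 and Slc25a11 held 1 each. The letters were thus present in front of the carrier that rose and of both carriers that fell.

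Across the family the letter run was common. RefSeq promoter windows, which span 250 bases before to 50 bases after a start, were matched by symbol for 30 of the 39 carriers, with 37 windows in all. On either strand 33 of these windows, or 89.2%, held GGGCGG, beside 58.8% of the 12789 windows of genes read here and 35.7% of all 32851. The letters TATAAA were in 0 of the 37 carrier windows and in 8.36% of the windows of genes read here. The letters CCAAT were in 54.1% and 37.4%. Counted by gene, with the letters in any window, GGGCGG was in 90% of the 30 carriers and 65.2% of genes read here. By gene CCAAT was in 56.7% and 42.7%, and TATAAA in 0% and 9.97%. A match is a description of the sequence and does not mark a bound site.

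Slc25a30, known as kidney mitochondrial carrier protein 1, had the largest difference in the family. Its values in control replicates 1 to 5 were 7.67, 8.13, 8.47, 9.39 and 8.86, and in mutant replicates 1 to 5 they were 10.21, 10.45, 9.24, 10.14 and 9.0. Mutants 1, 2 and 4 lay above all controls, while mutants 3 and 5 lay within the control range. The control mean was 8.50 ± 0.66 (SD, n = 5) and the mutant mean 9.81 ± 0.65 (SD, n = 5). Mutants were thus higher by 1.30 (SE 0.38), with an adjusted p of 0.0405 in the fit across all genes. All 3 of its probe sets differed in the same direction, by 1.30, 1.43 and 1.28. Removing any of controls 1, 2, 3 and 5 or of mutants 1, 2 and 4 ended the call, with an adjusted p from 0.0584 to 0.0903. With mutant replicate 5 removed it held, at 1.51 (adjusted p = 0.017).

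Slc25a11 fell by less but more evenly. It carries malate into mitochondria in exchange for 2-oxoglutarate as part of the malate-aspartate shuttle, which brings the reducing power of cytosolic NADH inside. Controls read 10.35, 10.15, 10.16, 10.15 and 10.06, and mutants read 9.67, 9.81, 9.97, 9.79 and 9.95. Every mutant lay below every control. The difference was -0.34 (SE 0.07, adjusted p = 0.0168), from a control mean of 10.17 ± 0.11 (SD, n = 5) to 9.84 ± 0.12 (SD, n = 5). Its call held without any 1 of the 10 arrays, with an adjusted p from 0.00923 to 0.0423.

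Slc25a39, which carries glutathione into mitochondria, showed the smallest of the differences that passed. Control values were 14.38, 14.44, 14.32, 14.41 and 14.36, and mutant values were 14.31, 13.93, 14.12, 14.14 and 14.23. The groups did not overlap, although mutant replicate 1 stood just below the lowest control. The difference was -0.23 (SE 0.07, adjusted p = 0.0429), and its 4 probe sets differed by -0.23, -0.22, -0.28 and -0.28. That call was close to the threshold: it was lost without any 1 array other than mutant replicates 1 and 5 (adjusted p from 0.0602 to 0.0880), and also after quantile normalization (0.0723), array centring on the median (0.0879) or 75th percentile (0.0710), removal of dim genes (0.0607), averaging of its probe sets (0.0511) or use of the probe set with the largest spread (0.130).

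Without mutant replicate 5, 8 carriers passed, 3 higher and 5 lower, where 28.6% of all genes passed. The 5 added were Slc25a24, Slc25a17, Slc25a22, Slc25a16 and Slc25a38.

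**Figure D2:**
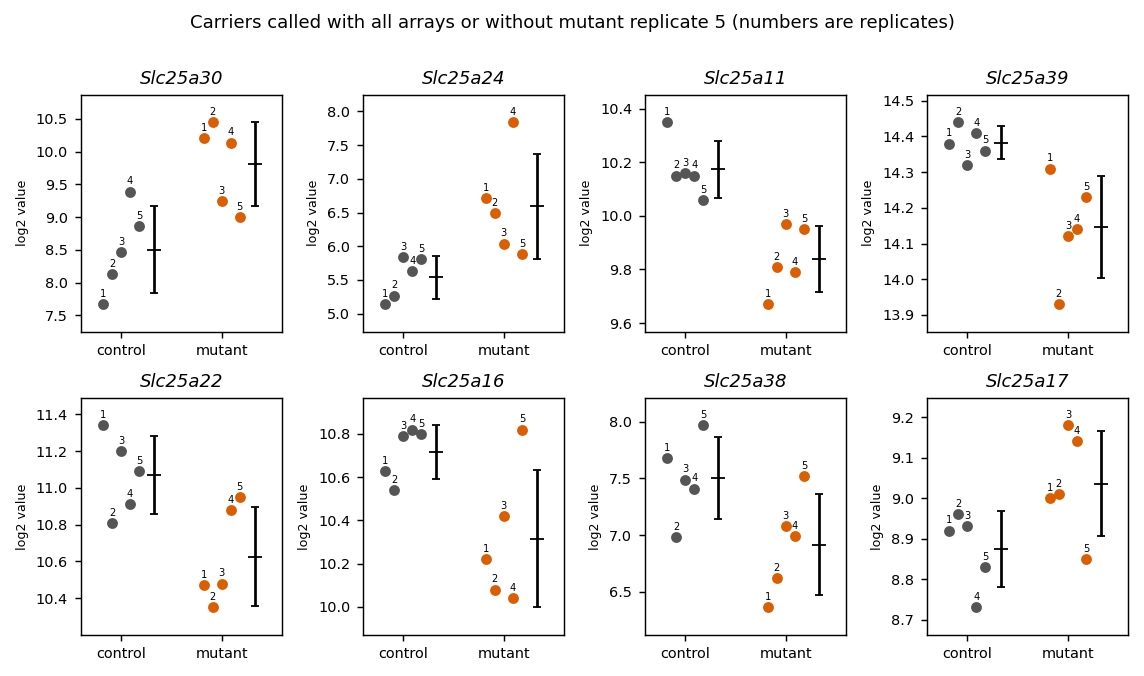
Log2 values (vertical axes, which differ between panels and do not start at 0) of 8 carriers in 5 control and 5 mutant livers, with replicate numbers beside the points and bars at the mean ± SD. Mutant replicate 5 lies at or near the controls for Slc25a16, Slc25a17 and Slc25a38, and within the range of the other mutants for Slc25a11 and Slc25a39.

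Among the carriers of adenine nucleotides and phosphate 0 of 7 passed, with 1 at an unadjusted p under 0.05. Of all genes 20.1% and 34.9% did so. Slc25a3, which brings in the phosphate that ATP synthase uses, read 13.12, 13.13, 12.95, 13.05 and 13.05 in controls and 13.04, 13.18, 13.15, 13.03 and 12.91 in mutants. The ranges coincided almost fully, and the 95% interval of the difference was -0.14 to 0.14. Slc25a5, an ADP/ATP exchanger of the inner membrane, read 14.28, 14.20, 14.22, 14.13 and 14.10 in controls and 14.32, 14.33, 14.33, 14.29 and 14.04 in mutants. Mutants 1 to 4 stood slightly above the controls and mutant 5 below them, with a difference of 0.07 (SE 0.07, adjusted p = 0.497). Slc25a5 was read by 8 probe sets, with differences of -0.01 to 0.32 (0.30 on the one with the largest spread, adjusted p = 0.0375), and 2 of them passed an adjustment over all probe sets, at 0.30 and 0.32. Probe sets of Slc25a5 can share signal with processed copies of the gene, and whether any of these 8 do was not tested. Slc25a4, the related exchanger of heart and muscle, differed by 0.22 (95% interval -0.24 to 0.69).

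The calcium-regulated ATP-Mg/phosphate carriers, Slc25a23, Slc25a24 and Slc25a25, adjust the adenine nucleotide content of mitochondria. Of these 3, 0 passed limma's adjusted test and 1 had an unadjusted p under 0.05, beside 20.1% and 34.9% of all genes. Slc25a24 read 5.14, 5.27, 5.84, 5.63 and 5.81 in controls and 6.71, 6.49, 6.04, 7.84 and 5.88 in mutants. Every mutant lay above every control, yet mutant 5 stood just above the highest control and the mutants spread widely. The difference of 1.05 (SE 0.34) had an adjusted p of 0.0576. It was 1.23 without mutant replicate 5 (adjusted p = 0.0269) and 0.74 without mutant replicate 4 (adjusted p = 0.059). It also passed after array centring on the median (adjusted p = 0.0388) or 75th percentile (0.0406), removal of dim genes (0.0412) and weighting of arrays (0.033). Of its 19 alternative fits, which include those without 1 array, 5 passed, and the highest adjusted p was 0.114. The dimmer probe set of Slc25a24 differed by 0.26. It averaged 3.21 in controls and 3.48 in mutants, both under 3.60, the 25th percentile of all readings. Macrophage and stellate cell markers were also higher in mutants, and their part in the Slc25a24 values was not tested.

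Slc25a25 belongs to the same group and was the most variable carrier among controls. It read 9.53, 7.44, 10.40, 10.34 and 8.35 in controls and 9.85, 9.57, 9.12, 10.91 and 9.96 in mutants. The control standard deviation of 1.29 left an interval of -0.67 to 2.01 around the difference of 0.67, which takes in both 0 and the 1.30 seen for Slc25a30. Slc25a23 differed by -0.16 (-0.44 to 0.13). Slc25a31, an ADP/ATP exchanger of the testis, read below 3.60 on 4 mutant arrays and all controls. That value is the 25th percentile of all readings, used here as a floor below which a level depends on how background was treated.

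Among the carriers of malate, dicarboxylates, aspartate and glutamate, 1 of 5 passed, Slc25a11, beside 20.1% of all genes. At an unadjusted p under 0.05, 3 of 5 were lower, beside 2462 of all 12366 genes. Slc25a13, or citrin, exports aspartate for the urea cycle and for the malate-aspartate shuttle in liver. It read 12.19, 11.78, 12.05, 12.19 and 12.32 in controls and 11.96, 11.90, 11.91, 11.92 and 11.79 in mutants. The lowest reading of all was a control, replicate 2, and the other 4 controls lay above every mutant. The difference was -0.21 (SE 0.09, adjusted p = 0.143), and without control replicate 2 it was -0.29 (adjusted p = 0.026). Leaving out the lowest control by itself enlarges the difference, and Slc25a13 passed in only 1 of 19 alternative fits. Slc25a12, its paralog of brain and muscle, differed by 0.04, with an interval of -0.17 to 0.25.

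Slc25a22, a mitochondrial glutamate carrier, read 11.34, 10.81, 11.20, 10.91 and 11.09 in controls and 10.47, 10.35, 10.48, 10.88 and 10.95 in mutants. Mutants 1 to 3 lay below all controls, while mutants 4 and 5 reached into the control range. The difference of -0.45 (SE 0.14) missed the threshold with an adjusted p of 0.0561 and passed without mutant replicate 5, at -0.53 (adjusted p = 0.0221). It also passed after quantile normalization (adjusted p = 0.0475), array centring on the median (0.0328) or 75th percentile (0.0395), removal of dim genes (0.0469) and weighting of arrays (0.0246). These were 6 of 19 alternative fits, and the highest adjusted p among the 19 was 0.119. Slc25a10, which exchanges dicarboxylates for phosphate, differed by -0.19 (-0.54 to 0.16).

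None of the 6 carriers grouped under the urea cycle and amino acids passed, and 1 had an unadjusted p under 0.05. Of all genes 20.1% and 34.9% did so. Slc25a15 exchanges ornithine and citrulline across the inner membrane and so joins the mitochondrial and cytosolic steps of the urea cycle. Its values were 13.78, 13.23, 13.59, 13.29 and 13.74 in controls and 13.05, 13.39, 13.56, 13.92 and 13.46 in mutants. Mutants held both the lowest and the highest reading. The difference was -0.05 (SE 0.17, adjusted p = 0.906), and its interval ran from -0.42 to 0.33. Slc25a38, which imports glycine for heme synthesis, fell short of the threshold at -0.59 (SE 0.24, adjusted p = 0.111), the control mean being 7.51 ± 0.37 (SD, n = 5) and the mutant mean 6.92 ± 0.45 (SD, n = 5). Mutant replicate 5 read 7.52 on it, at the control mean, and without that array the difference was -0.74 (adjusted p = 0.0334). Slc25a38 passed in 1 of 19 alternative fits.

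The remaining carriers placed in this group also did not pass. Slc25a44, a carrier of branched-chain amino acids, differed by -0.27 (-0.67 to 0.14), with -0.38 on its second probe set. Slc25a48 differed by 0.60 (-0.19 to 1.39), with 0.29 on its second probe set. Its control replicate 5, at 6.90, exceeded every mutant, and without that array the difference was 0.90 (adjusted p = 0.0421). Leaving out the highest control by itself enlarges the difference, and Slc25a48 passed in only 1 of 19 alternative fits. Slc25a29, a carrier of basic amino acids, differed by 0.14 (-0.11 to 0.39). Slc25a2, a second ornithine carrier, lay under the floor on all arrays.

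Of the carriers of carnitine, coenzyme A and cofactors 0 of 7 passed, with 1 at an unadjusted p under 0.05. Of all genes 20.1% and 34.9% did so. Slc25a20 brings acylcarnitines into mitochondria in exchange for carnitine, the step between the 2 palmitoyltransferases Cpt1a and Cpt2 of fatty acid oxidation. Its controls read 11.61, 11.95, 11.69, 12.14 and 11.92, and its mutants read 12.29, 11.85, 11.99, 12.15 and 11.91. The groups overlapped, with a difference of 0.18 (SE 0.12, adjusted p = 0.337). Slc25a42, which exchanges coenzyme A for adenine nucleotides, read 9.04, 8.79, 9.02, 9.28 and 9.03 in controls and 9.10, 8.58, 9.11, 8.86 and 9.09 in mutants. All but mutant 2 lay in the control range, and the difference was -0.08 (SE 0.12, adjusted p = 0.689).

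Slc25a16 stood out among the other cofactor carriers by its split among mutants. Controls read 10.63, 10.54, 10.79, 10.82 and 10.80, and mutants read 10.22, 10.08, 10.42, 10.04 and 10.82. Mutants 1 to 4 lay below every control, and mutant 5 equalled the highest control to the second decimal. With all arrays the difference was -0.40 (SE 0.14, adjusted p = 0.0796). It passed without mutant replicate 5, at -0.53 (adjusted p = 0.00477), after centring on the array median (0.0435) and with weighting of arrays (0.021). These were 3 of 19 alternative fits, and the highest adjusted p among the 19 was 0.166. Slc25a17, which serves peroxisomes rather than mitochondria, showed the same split in the other direction. Its difference was 0.16 (adjusted p = 0.147) with and 0.21 (adjusted p = 0.0465) without mutant replicate 5, and it passed in 1 of 19 alternative fits. Slc25a32, a folate and flavin carrier, differed by -0.42 (-0.85 to 0.01), and Slc25a51, the NAD carrier, by 0.41 (-0.40 to 1.22). Slc25a26, the S-adenosylmethionine carrier, averaged below the floor in both groups.

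For iron and glutathione carriers 1 of 4 passed, Slc25a39, beside 20.1% of all genes. Its paralog Slc25a40 differed by -0.05, with an interval of -0.20 to 0.09. The mitoferrins Slc25a37 and Slc25a28, which import iron for heme and iron-sulfur clusters, differed by -0.03 (-0.30 to 0.24) and -0.09 (-0.56 to 0.37). Slc25a28 stood between 7.66 and 7.86 in controls, and mutants ranged from 6.80 in replicate 2 to 8.07 in replicate 5. Mitoferrin 1 is abundant in erythroid cells, and the summed level of 6 erythroid markers was 10.04 to 11.14 in controls and 9.67 to 10.90 in mutants.

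The pyrimidine nucleotide carriers Slc25a33 and Slc25a36 differed by -0.06 (-0.72 to 0.61) and 0.25 (-0.02 to 0.52). Besides Slc25a30, the group related to uncoupling proteins held Slc25a27, a carrier of neurons, which averaged below the floor in both groups. Slc25a47, a carrier found mainly in liver, read 14.21, 13.90, 14.03, 14.38 and 14.13 in controls and 14.37, 13.97, 14.02, 14.09 and 13.82 in mutants. Its ranges overlapped, with a difference of -0.08 (SE 0.12, adjusted p = 0.714). The outer membrane member Slc25a46, which acts in mitochondrial dynamics, differed by 0.07 (-0.12 to 0.27). The orphan carriers Slc25a34, Slc25a45 and Slc25a53 differed by 0.40 (-0.05 to 0.85), 0.12 (-0.51 to 0.75) and -0.21 (-0.73 to 0.30), and Slc25a35 averaged below the floor.

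**Figure D3:**
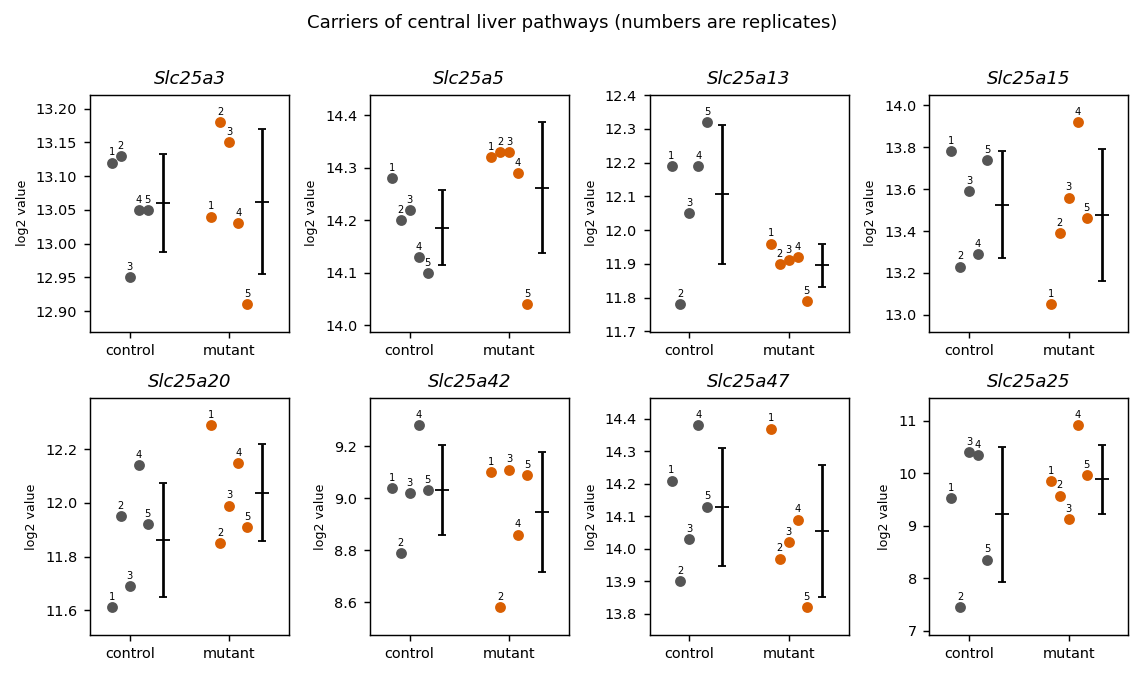
Log2 values (vertical axes, which differ between panels and do not start at 0) of 8 carriers of central liver pathways in 5 control and 5 mutant livers, with replicate numbers and bars at the mean ± SD. Control and mutant points overlap in every panel, and the spread among controls is widest for Slc25a25.

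In all, 5 carriers averaged below the floor, Slc25a2, Slc25a26, Slc25a27, Slc25a31 and Slc25a35, and 34 averaged at or above it. Several probe sets were available for 18 carriers. Their differences had one sign for 11 of these and both signs for 7. Of the 72 probe sets of the family 4 passed when adjusted over all probe sets, 3 higher and 1 lower, beside 13.2% of all probe sets. Those higher belonged to Slc25a5 (adjusted p = 0.0406 and 0.013) and Slc25a30 (0.043), and that lower to Slc25a11 (0.0209). The brightest probe set of Slc25a30 (0.054) and those of Slc25a39 (0.0508 to 0.147) did not pass this adjustment.

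**Figure D4:**
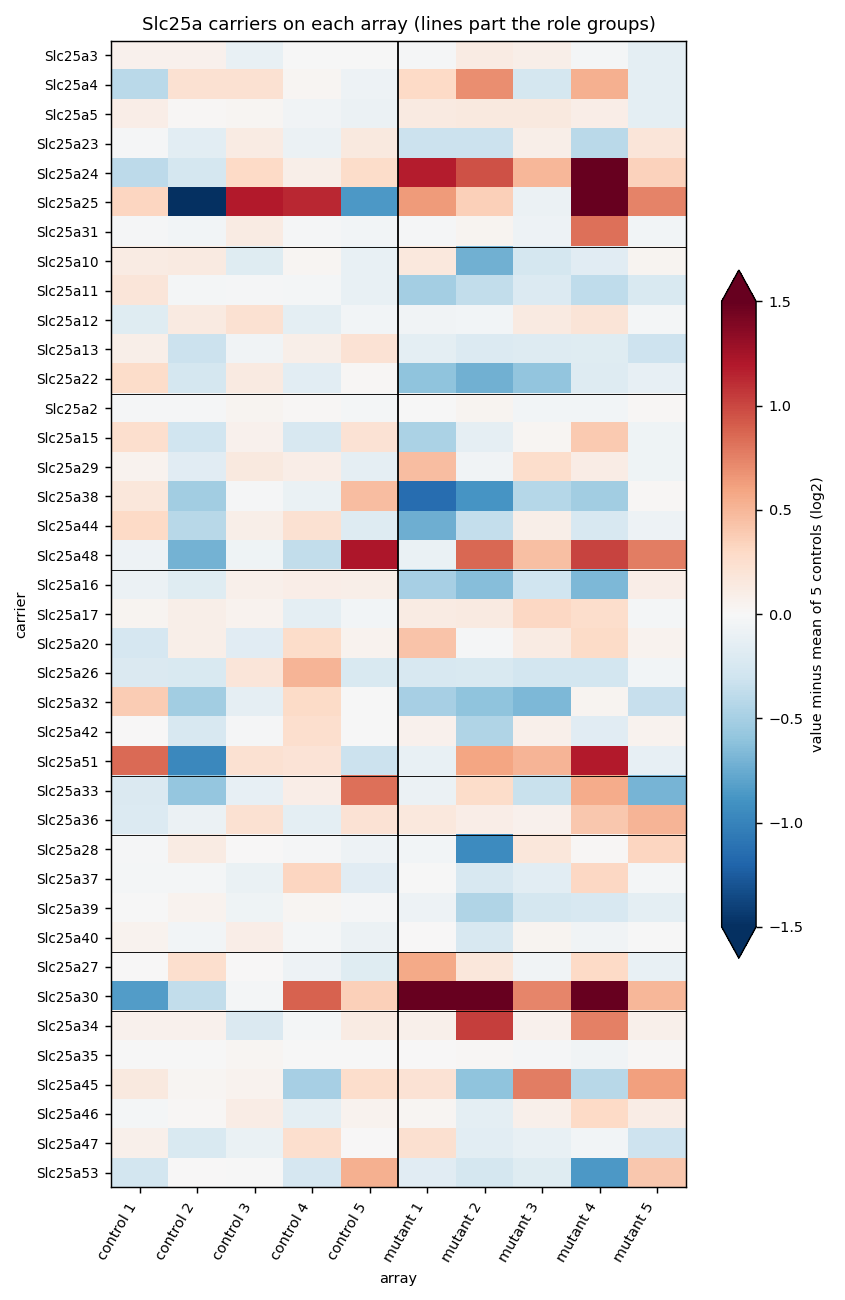
Deviation of each of the 39 carriers (rows, by role) from the mean of the 5 controls on each of the 10 arrays (columns), on the log2 scale from blue (lower) to red (higher), with colours saturating at the ends of the scale. Mutant replicates 2 and 4 have 13 and 12 carriers that deviate by more than 0.5, and mutant replicate 5 has 5, within the 1 to 6 of the control arrays.

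The other genes of mitochondrial transport and import were read from the same fit. Of 10 measured genes of the TIM22 route, by which carriers are inserted, 8 were lower and 0 higher, beside 11.5% of all genes lower, with a median difference of -0.85. The small chaperones Timm9 and Timm10, which escort carriers across the intermembrane space, were lower, with differences of -1.38 (SE 0.28) and -0.87 (SE 0.17) and adjusted p-values of 0.0135 and 0.0115. Timm22, the insertion channel, was lower as well (-0.85, adjusted p = 0.0176), but not with the mean of its probe sets (-0.35, adjusted p = 0.0935). Timm9 read 8.50, 8.21, 8.49, 9.03 and 8.52 in controls and 7.31, 6.51, 7.20, 6.75 and 8.11 in mutants, so that every mutant lay below every control. Tomm70a, the outer membrane receptor for carriers, differed by -0.08 (-0.28 to 0.12), but on the probe set with the largest spread it was higher, by 0.70 (adjusted p = 0.0124). Over the alternatives and the fits without 1 array, 7 or 8 of these 10 genes were lower, and 0 were higher other than Tomm70a in that 1 setting. Among the fits without 1 array the calls of Timm8a1, Timm8b, Timm9, Timm10, Timm10b, Timm13 and Timm22 held in 10 of 10, and that of Timm29 held in 2, without control replicate 1 and without mutant replicate 5.

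Among 18 other transport proteins of mitochondria 1 was higher and 3 were lower, or 22.2% called, close to the 20.1% of all genes. Micu2, a regulator of calcium uptake, was higher by 0.64 (adjusted p = 0.0458), a call that held in 1 of 10 fits without 1 array, that without mutant replicate 5, and was lost after centring on the array median (0.0582). Lower were Smdt1, a subunit of the calcium uniporter (-0.55, adjusted p = 0.0225; 0.0539 without mutant replicate 2), the serine transporter Sfxn1 (-0.65, adjusted p = 0.0144) and the outer membrane protein Tspo (-0.70, adjusted p = 0.019). The outer membrane channels Vdac1, Vdac2 and Vdac3 differed by 0.03, -0.15 and -0.04 and did not pass.

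Of 26 enzymes that use carried substrates 3 were higher and 1 was lower. These are 11.5% and 3.85%, beside 8.62% and 11.5% of all genes. Mdh2, the mitochondrial malate dehydrogenase of the malate-aspartate shuttle, was higher by 0.46 (SE 0.11, adjusted p = 0.0193). Oat, the ornithine aminotransferase, was higher by 0.83 (adjusted p = 0.0236), and Crat, the carnitine acetyltransferase, by 1.17 (adjusted p = 0.0186), or 0.66 with the mean of its probe sets (adjusted p = 0.0164). Fech, which inserts iron into heme, was lower, at -0.29 (adjusted p = 0.0274), and its call was lost without control 1, 4 or 5 or mutant 1, 3 or 4 (adjusted p up to 0.0614). The mitochondrial urea cycle enzymes Otc and Cps1 differed by 0.04 and 0.09 and did not pass.

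Other nuclear-encoded mitochondrial genes, taken by the start of their symbols after the carriers' values were seen, were counted by the same rule, under which 8.62% of all genes were higher and 11.5% lower. Of 76 mitochondrial ribosomal protein genes 44 were lower and 0 higher, with a median of -0.43. Of 76 respiratory chain and ATP synthase genes 42 were lower and 0 higher, with a median of -0.28. Solute carriers of other families, 211 genes, had 30 higher and 14 lower, or 20.9% called, close to the 20.1% of all genes. The carriers of the Slc25 family, at 7.69% called and a median of -0.01, had a smaller share called than each of these lists, and the difference between lists was not tested.

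**Figure D5:**
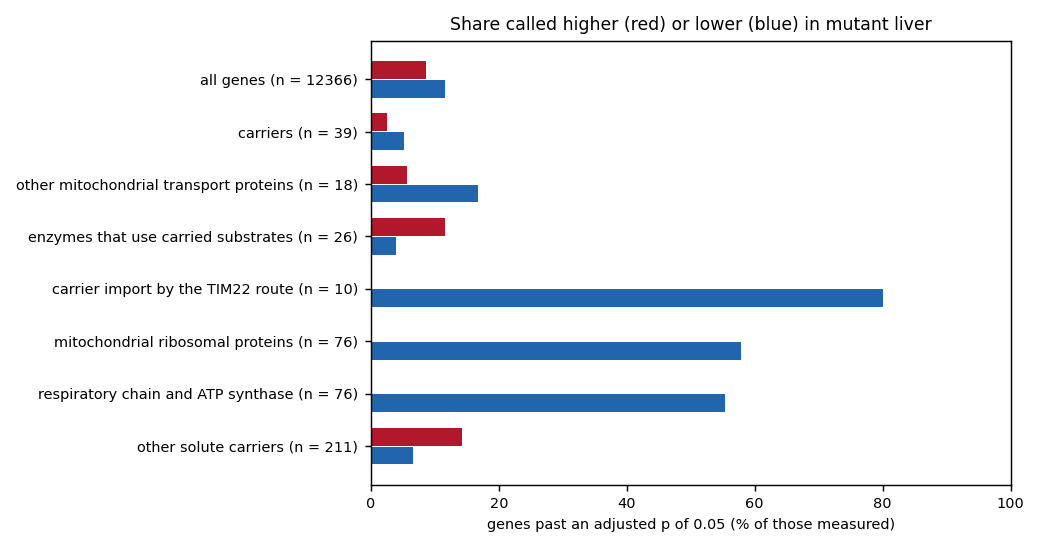
Percent of measured genes called higher (red) or lower (blue) in mutant liver at an adjusted p under 0.05, for all genes, the carriers and 6 other lists, on an axis that starts at 0. The carriers stand at 2.56% and 5.13%, and the TIM22 route at 0% and 80%.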

How the data were processed

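For 10 Affymetrix mouse arrays, the values the authors deposited are on a log2 scale, 1 per probe set and array. The log base was read from the values (0.27 to 16.65), while the sources used here do not give how background was removed, probes were summarised and arrays were scaled. Array medians lay between 6.40 and 6.67, and the number of arrays limits the precision. Of 25995 probe sets, 37 controls were left out, 21613 had 1 gene symbol in the platform annotation used here, 638 had several and 3707 had none. A gene was read from its brightest probe set, by the mean of 10 arrays.

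Group and replicate came from the titles. Differences are mutant minus control, fitted over all 12366 genes with limma 3.58.1 (lmFit, then eBayes; R 4.3.3). Tests are two-sided, p-values are adjusted by the Benjamini-Hochberg method, and standard errors and 95% intervals are moderated. A marker list's summed level is the log2 of its members' summed linear values. The fit was also run on simulated data with independent normal noise as a check of the procedure, and no call above rests on it. Carriers named with values on every array were those called and 9 of central liver pathways; carriers that passed under an alternative only were added after their values were seen. The carriers and lists were chosen with earlier results of these data known. Alternatives covered normalization, dim genes, choice of probe set, variance model, array weights, a replicate block and leaving out each array.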

Additional observations from a re-analysis of the deposited data

Results flagged for a closer look

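In 6 of 78 groups of 5 arrays, 1 array stood apart from the other 4 by more than Dixon's 95% limit, and chance gives about 1 in 20. Slc25a5 read 14.04 on mutant replicate 5, below the 14.29 to 14.33 of the other mutants. Slc25a37 read 9.31 on control replicate 4, above 8.82 to 8.96 on the other controls. The remaining 4 were carriers that averaged below the floor: Slc25a26 read 2.87 on mutant replicate 5, Slc25a31 read 3.14 on control replicate 3 and 3.84 on mutant replicate 4, and Slc25a35 read 2.49 on control replicate 3.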

How the results depend on the processing

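With 1 carrier higher and 2 lower as the reported counts, 2 were higher after centring on the array median or 75th percentile, without dim genes, with the probe set of largest spread and with array weights. The number lower was 1 with the mean of all probe sets or the probe set of largest spread, 3 after centring on the array median and 4 with array weights. Leaving out 1 array gave 0 to 3 higher and 1 to 5 lower, and for all genes 627 to 1371 higher (1066 reported) and 764 to 2160 lower (1422 reported). The highest carrier counts came without mutant replicate 5. The same-numbered replicates did not deviate together (correlations from -0.18 to 0.09), so they share only a number. With it as a replicate block in limma, 0 carriers were higher and 0 lower, 8 had an unadjusted p under 0.05, and 14.8% of all genes were called. The calls of Mdh2, Micu2, Fech and Timm29 were also lost with it (adjusted p from 0.0587 to 0.0711). The carriers' median difference stayed between -0.05 and 0.02. Of the 39 carriers 27 kept their sign in each setting they were tested in, which were 18 for Slc25a26 and Slc25a27, left out as dim in 1, and 19 for the others of the 27.

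Signs changed only for 12 carriers that passed under no setting. Slc25a12 gave -0.02 with the mean of probe sets and -0.09 with the probe set of largest spread, and Slc25a51 gave -0.10 with the latter. Slc25a2 and Slc25a35 gave 0.01 after median centring and 0.02 after 75th percentile centring, and Slc25a37 gave 0.01 after quantile normalization and 0.00 after 75th percentile centring. Without 1 array the differences ran from 0.00 to 0.10 for Slc25a12, -0.16 to 0.06 for Slc25a15, -0.02 to 0.00 for Slc25a2, -0.20 to 0.12 for Slc25a28, -0.03 to 0.04 for Slc25a3, -0.02 to 0.20 for Slc25a31, -0.21 to 0.15 for Slc25a33, -0.01 to 0.01 for Slc25a35, -0.11 to 0.05 for Slc25a37, -0.15 to 0.01 for Slc25a42 and -0.04 to 0.30 for Slc25a45. The cause of these changes was not tested.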

Other observations

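Control replicate 2 had the most carriers among controls, 6, that deviated by more than 0.5 from the control mean. It held the lowest control value of these 6, Slc25a25 (7.44), Slc25a51 (10.36), Slc25a33 (9.38), Slc25a48 (4.97), Slc25a32 (7.64) and Slc25a38 (6.98). Among other carriers above the floor it was lowest for citrin, Slc25a13 (11.78), and for Slc25a15, Slc25a16, Slc25a22, Slc25a23, Slc25a29, Slc25a42, Slc25a44 and Slc25a47. It was the highest control for Slc25a3, Slc25a4, Slc25a10, Slc25a17, Slc25a28 and Slc25a39. Without it, Slc25a13 was called lower in mutants at -0.29, which happened in no other alternative.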
